A study of Homo sapiens with 38 samples.

Results

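Metallothioneins are small cysteine-rich proteins that bind zinc, copper and cadmium, and SLC30A1 (ZnT1) is the zinc transporter of the plasma membrane that carries zinc out of the cell. Both are textbook targets of MTF1, the zinc-sensing transcription factor, which binds metal response elements in their promoters and raises their transcription when free zinc rises. Metallothionein genes also respond to glucocorticoids and to oxidative stress, and in the lung epithelium they are known as a buffer against inhaled metals and oxidants. The 10 genes described here are MT1A, MT1B, MT1E, MT1F, MT1G, MT1H, MT1M, MT1X, MT2A and SLC30A1, chosen by name. They were found through the transcript accession of each array probe, which gave 12 of the 34127 probes measured, with 2 probes each for MT1H and MT1X.

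The levels came from 38 one-colour microarrays of A549 cells, an established human lung adenocarcinoma line that is widely used as a model of the alveolar epithelium. Cultures in serum-free medium were left unexposed or were given AEROSIL 200, an amorphous fumed silica made of nanoparticles (NPs), for 24 h or 72 h. The 12 arrays of set A held 4 of unexposed cells, 4 at 0.1 µg/cm2 and 4 at 1.0 µg/cm2 for 24 h, and the 8 arrays of set B held 4 of unexposed cells and 4 at 1.5 µg/cm2 for 24 h. The 18 arrays of set C held 3 each of unexposed cells, 3.0 µg/cm2 and 6.0 µg/cm2 at 24 h, and the same 3 conditions at 72 h. The labels number biological replicates, and the treatment protocol speaks of different cultures. It names fewer cultures than the 4 arrays of the groups in sets A and B, and whether each came from a culture of its own is not given. P-values measure the spread between these arrays, which may in part be technical. In bulk RNA, fewer cells of a kind and less RNA per cell cannot be told apart. Doses of 3.0 and 6.0 µg/cm2 shared their controls at each time, and so did 0.1 and 1.0 µg/cm2.

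Levels are given as the log2 of the processed signal relative to the array's 75th percentile, so that 0 is the level of that percentile and a step of 1 is a doubling. Differences of log2 levels between exposed and control arrays were tested with limma, with p-values adjusted over all probes tested. A probe was called modulated at an adjusted p under 0.05 together with a change of at least 1.5-fold, and it is said to have risen or fallen where the adjusted p alone was under 0.05. Of the 10 genes, 8 had a probe bright enough to be tested in each of the 7 comparisons with controls. MT1G and MT1M were not, nor was the second probe of MT1H, which was not well above background on any of the 38 arrays. Each gene was counted once, by the brightest of its probes. No spot was saturated, and an array had from 54.4% to 73.6% of its probes well above background. All 6 epithelial marker genes were well above background on all arrays, against 2 of 7 alveolar type II, 2 of 5 leukocyte, 1 of 4 fibroblast and 0 of 4 endothelial markers. Of the type II markers, ABCA3 and SFTPC were well above background on all 38 arrays, SFTPD on 37 and LAMP3 on 33. SFTPA1 was so on 11, SFTPB on 2 by its brightest probe, and the transcription factor NKX2-1 on 1.

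The 9 metallothionein members lie side by side on chromosome 16, within 75.6 kb (GRCh38.p14, chr16:56608584-56684196), in the order MT2A, MT1E, MT1M, MT1A, MT1B, MT1F, MT1G, MT1H and MT1X. SLC30A1 is on chromosome 1 (chr1:211571568-211579161). The RefSeq promoter table of GRCh38.p14, with 250 bases before and 50 bases after the annotated start, held 5 of the 10 members, MT1B, MT1H, MT1X, MT2A and SLC30A1. Their windows were searched on both strands for the 7-letter core of the metal response element, spelled as TGCACNC or as TGCGCNC, where N is any base. The core matched 8 times in MT2A, 8 times in MT1H, 4 times in MT1X, 3 times in MT1B and 2 times in SLC30A1, and no match overlapped another. Of the 35116 promoters in the table, 29.6% held at least 1 match, 8.6% at least 2, 2.3% at least 3, 0.601% at least 4 and 0.0199% at least 8. A match says only that these letters are there. The windows of MT2A, of MT1X, whose 2 probes disagreed, and of SLC30A1, the exporter, are shown because they carry the most, an intermediate number and the fewest of these letters. Each is printed 5′ to 3′ on the strand of its gene, with the matched letters on either strand in capitals.
MT2A, chr16:56608334-56608633, plus strand: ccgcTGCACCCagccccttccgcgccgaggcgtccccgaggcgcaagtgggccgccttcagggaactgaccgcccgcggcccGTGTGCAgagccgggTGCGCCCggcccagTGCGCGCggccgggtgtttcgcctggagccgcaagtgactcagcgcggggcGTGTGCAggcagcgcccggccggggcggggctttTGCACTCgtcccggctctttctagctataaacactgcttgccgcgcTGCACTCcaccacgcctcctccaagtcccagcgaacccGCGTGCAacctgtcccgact
MT1X, chr16:56682220-56682519, plus strand: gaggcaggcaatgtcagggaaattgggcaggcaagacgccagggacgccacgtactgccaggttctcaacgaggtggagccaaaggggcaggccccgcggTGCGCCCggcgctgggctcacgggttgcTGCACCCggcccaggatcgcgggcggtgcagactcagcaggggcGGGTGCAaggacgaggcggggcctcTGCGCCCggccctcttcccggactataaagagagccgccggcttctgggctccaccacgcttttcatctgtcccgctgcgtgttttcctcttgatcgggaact
SLC30A1, chr1:211579112-211579411, minus strand: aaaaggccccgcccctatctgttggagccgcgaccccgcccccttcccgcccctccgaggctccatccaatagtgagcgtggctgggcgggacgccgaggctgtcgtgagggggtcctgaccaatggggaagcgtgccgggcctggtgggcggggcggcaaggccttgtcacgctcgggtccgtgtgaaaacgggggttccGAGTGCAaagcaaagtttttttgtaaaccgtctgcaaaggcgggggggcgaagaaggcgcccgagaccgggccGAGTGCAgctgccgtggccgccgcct

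**Figure D1:**
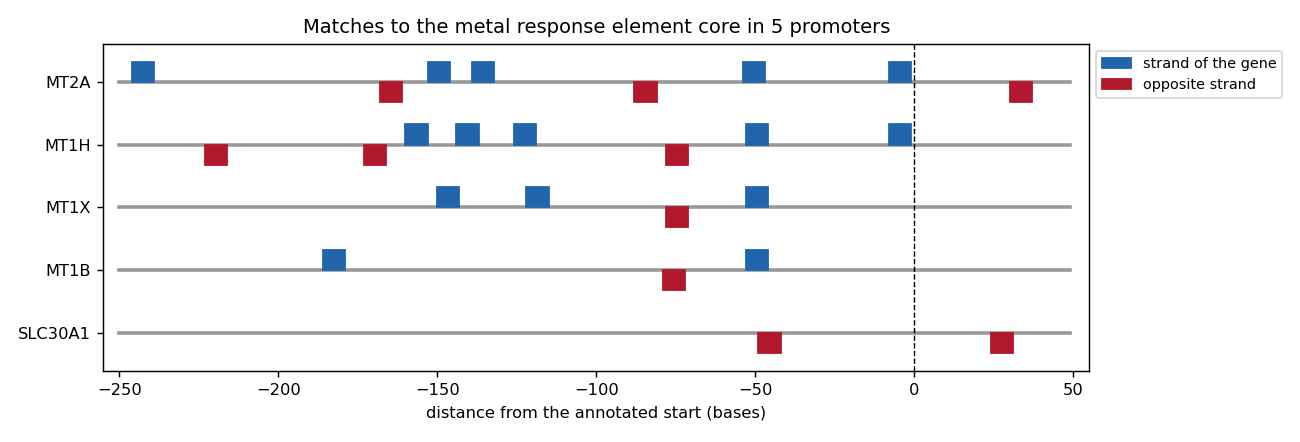
Position of each match to the metal response element core in the promoter windows of 5 members, as the distance in bases from the annotated start (0, dashed line). Blue blocks above a line are matches on the strand of the gene and red blocks below it matches on the opposite strand, and the 8 matches each in MT2A and MT1H and the 2 in SLC30A1 can be counted.

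MT1F, a zinc-binding metallothionein of the MT1 group, fell, and its changes at 6.0 µg/cm2 were the largest among the 8 genes tested. In set C at 24 h its levels were 0.85, 0.67 and 0.73 in the 3 control replicates. They were 0.49, 0.42 and 0.41 at 3.0 µg/cm2, and −0.18, −0.25 and −0.35 at 6.0 µg/cm2. The 3 groups did not overlap, and the level was lower at the higher dose. At 6.0 µg/cm2 the difference from controls was −1.01 on the log2 scale (SE 0.07, limma adjusted p = 0.000241), a level 2.02-fold lower. At 3.0 µg/cm2 the difference was −0.31 (SE 0.06, adjusted p = 0.0277), below the fold threshold. The adjusted p at 3.0 µg/cm2 lay between 0.0529 and 0.0923 when any 1 of the 6 arrays except control replicate 2 was left out. Within each of the 3 slides of set C that carried all the 24 h groups, the level at 6.0 µg/cm2 was lower than in the control by 1.03, 0.92 and 1.09.

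At 72 h the MT1F levels were 0.79, 0.91 and 0.96 in control cells. They were 0.51, 0.38 and 0.44 at 3.0 µg/cm2, and −0.22, −0.43 and −0.19 at 6.0 µg/cm2. Again the groups did not overlap and their order was that of the dose. The difference from controls was −1.17 (SE 0.09, limma adjusted p = 0.000171) at 6.0 µg/cm2, a level 2.25-fold lower, and −0.44 (SE 0.07, adjusted p = 0.00815) at 3.0 µg/cm2. All exposed arrays at 72 h were scanned on another day than their controls, so that exposure and scan day cannot be told apart in the comparisons with 72 h controls. Both doses were scanned on the same day at 72 h and on the same slides at 24 h, and MT1F was lower at 6.0 than at 3.0 µg/cm2 by 0.73 (SE 0.08, adjusted p = 0.00498) and 0.70 (SE 0.06, adjusted p = 0.00416), respectively. Its response did not differ detectably between the times, with differences of −0.13 (SE 0.09, adjusted p = 0.343) at 3.0 µg/cm2 and −0.16 (SE 0.12, adjusted p = 0.32) at 6.0 µg/cm2.

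**Figure D2:**
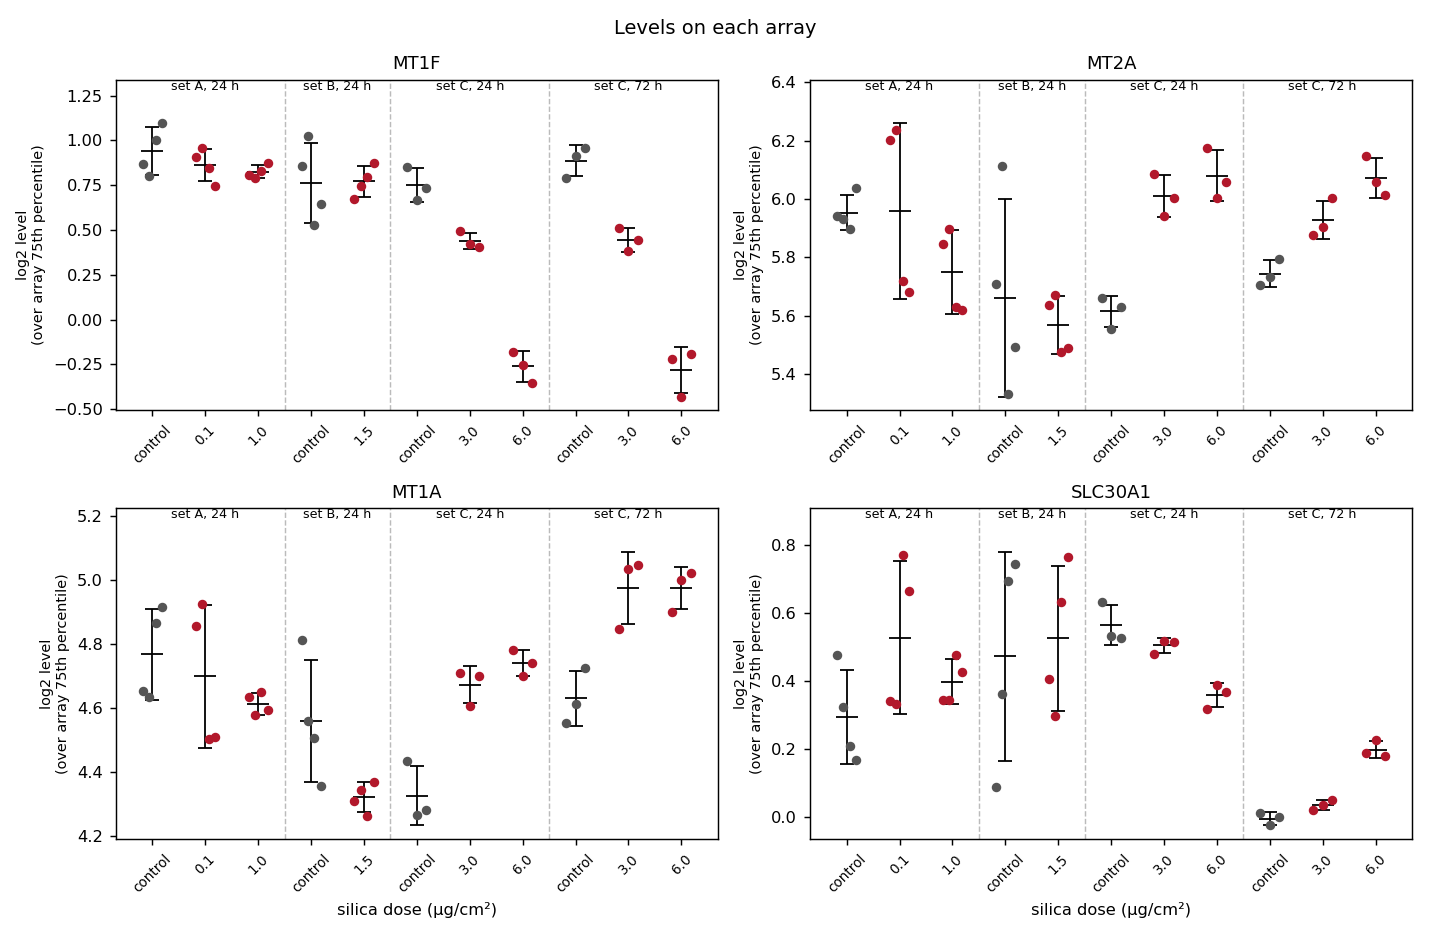
Log2 levels of MT1F, MT2A, MT1A and SLC30A1 on each of the 38 arrays (points), grouped by array set, time and dose in µg/cm2, with the mean and SD of each group in black (unexposed in grey, exposed in red; the vertical axes do not start at 0). MT1F falls to between −0.43 and −0.18 at 6.0 µg/cm2, and the 0.1 µg/cm2 group of MT2A and MT1A splits into 2 pairs of arrays.

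The remaining metallothioneins bright enough to test rose at 3.0 and 6.0 µg/cm2 at 24 h, each by less than 1.5-fold. The probe of MT2A, a common readout of metal exposure, had levels of 5.66, 5.56 and 5.63 in controls. They were 6.09, 5.94 and 6.00 at 3.0 µg/cm2, and 6.17, 6.00 and 6.06 at 6.0 µg/cm2. All exposed arrays were above all control arrays, and both doses overlapped. The difference from controls was 0.39 (SE 0.06, limma adjusted p = 0.00997) at 3.0 µg/cm2 and 0.46 (SE 0.07, adjusted p = 0.00275) at 6.0 µg/cm2, or 1.31-fold and 1.38-fold. MT1A rose by 0.34 (SE 0.07, adjusted p = 0.0218) at 3.0 µg/cm2, and its levels went from 4.43, 4.27 and 4.28 in controls to 4.78, 4.70 and 4.74 at 6.0 µg/cm2, a rise of 0.41 (SE 0.06, adjusted p = 0.00421). MT1B, MT1E and MT1H, which encode further MT1 proteins, rose by 0.39, 0.38 and 0.33 at 3.0 µg/cm2 and by 0.46, 0.45 and 0.41 at 6.0 µg/cm2. The brighter probe of MT1X rose by 0.36 (SE 0.05, adjusted p = 0.0102) and 0.51 (SE 0.06, adjusted p = 0.00122).

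Of the 8 genes tested, 6 thus rose and 1 fell at 3.0 µg/cm2 and 24 h, where 5.69% of all probes rose and 6.5% fell. At 6.0 µg/cm2, 6 rose and 2 fell, against 14.2% and 20% of all probes. The median difference of the 8 genes was 0.35 at 3.0 and 0.43 at 6.0 µg/cm2, and that of all probes −0.01 and −0.03. MT1A, MT1B, MT1E and MT1H may not be separate measurements, as described below, which limits these counts and medians and those at 72 h. None of the 8 genes was modulated at 3.0 µg/cm2, where 2.88% of the probes were, and MT1F alone at 6.0 µg/cm2, where 9.32% were. At 3.0 µg/cm2 the count of rising genes was 3 without control replicate 2, 3 without exposed replicate 1 and 3 without a filter on dim probes. Between 3.0 and 6.0 µg/cm2 at 24 h MT1F alone of the 8 genes was modulated, as were 1.64% of all probes, and no other passed the adjusted p, which 3.68% of all probes passed higher and 5.35% lower. MT2A differed by 0.07 (SE 0.07, adjusted p = 0.553).

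**Figure D3:**
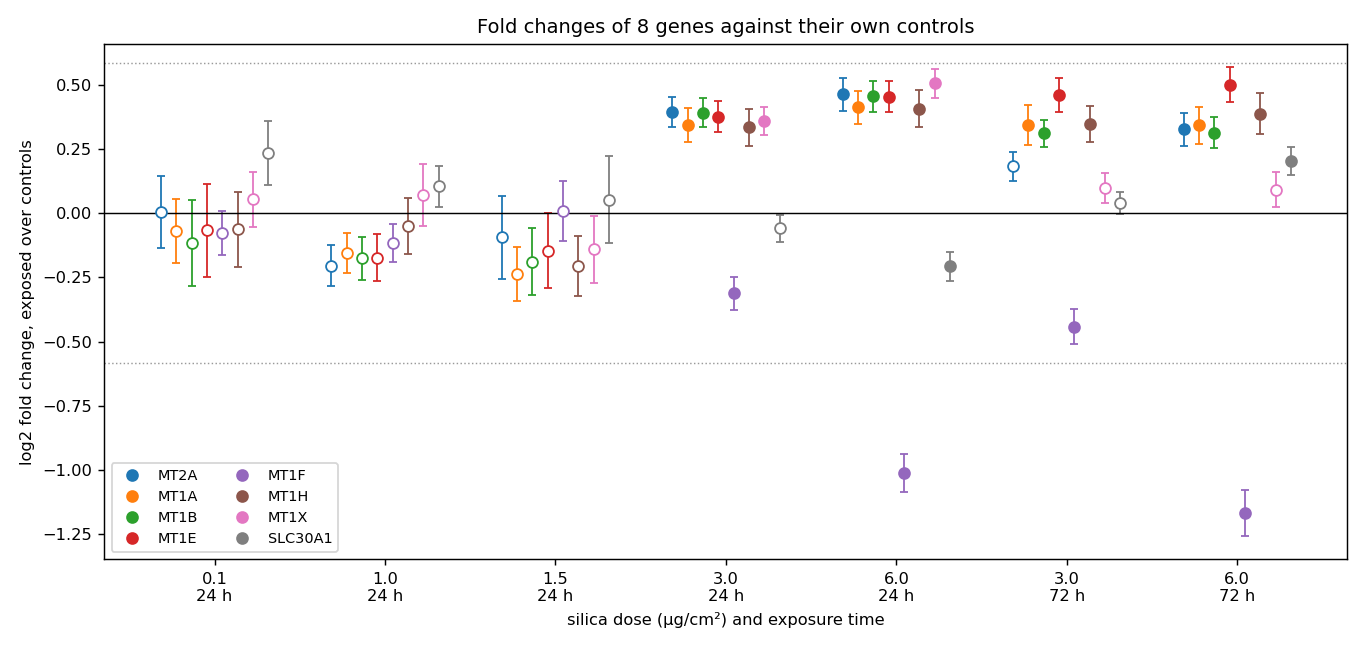
Log2 fold change of 8 genes (brightest probe of each) in the 7 comparisons with controls, with its standard error as bars. Filled points have an adjusted p under 0.05 and open points do not, the dotted lines mark a change of 1.5-fold, and MT1F at 6.0 µg/cm2 (−1.01 at 24 h and −1.17 at 72 h) lies beyond them.

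At 72 h 4 metallothioneins rose at both doses and MT2A at the higher dose alone. MT1A, MT1B, MT1E and MT1H rose at 3.0 µg/cm2, by 0.34, 0.31, 0.46 and 0.35, and at 6.0 µg/cm2, by 0.34, 0.31, 0.50 and 0.39. MT1E, for example, had levels of 2.59, 2.67 and 2.69 in controls, 3.01, 3.16 and 3.17 at 3.0 µg/cm2, and 3.07, 3.21 and 3.18 at 6.0 µg/cm2. Every exposed array was above every control array, and both doses overlapped. MT2A rose at 6.0 µg/cm2 by 0.33 (SE 0.07, limma adjusted p = 0.00766), and at 3.0 µg/cm2 its difference was 0.18 (SE 0.06, adjusted p = 0.0608). In all, 4 of 8 genes rose and 1 fell at 3.0 µg/cm2, against 12.9% and 13.9% of all probes, and 6 rose and 1 fell at 6.0 µg/cm2, against 23.8% and 22%. The median difference was 0.25 at 3.0 and 0.32 at 6.0 µg/cm2, beside 0.03 and 0.04 for all probes. None was modulated at 3.0 µg/cm2 and MT1F alone at 6.0 µg/cm2, where 5.91% and 17.1% of the probes were. The count of rising genes at 3.0 µg/cm2 was 2 without control replicate 1, 1 without control replicate 2 and 2 without exposed replicate 2 or without a filter on dim probes. These rises stand against controls of the other scan day. Between both doses on the same day, 4.85% of the probes were modulated, MT1F among them, and the differences of MT1A, MT1B, MT1E and MT1H were at most 0.04 in size.

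The MT1 genes are close copies of each other, and a probe for one may take up transcripts of another. The probes of MT1A, MT1B, MT1E and MT1H, and that of the pseudogene MT1L, moved together from array to array within a group. Their deviations from the group means had Pearson correlations of 0.881 to 0.986 over the 10 pairs of probes and all 38 arrays, and of 0.819 to 0.966 over the 18 arrays of set C. The arrays share their labeling and scaling, and these 5 probes were picked after their values were seen. The probe of MT1F stood apart from them, with correlations of 0.355 to 0.521 over all arrays and 0.122 to 0.474 in set C. MT2A had correlations of 0.300 to 0.560 and 0.392 to 0.578 with them, and the brighter probe of MT1X 0.584 to 0.736 and 0.564 to 0.872. Which transcripts each probe took up was not tested, so that the rises of MT1A, MT1B, MT1E and MT1H should not be counted as 4 separate measurements. The probes' own sequences were not analysed here.

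**Figure D4:**
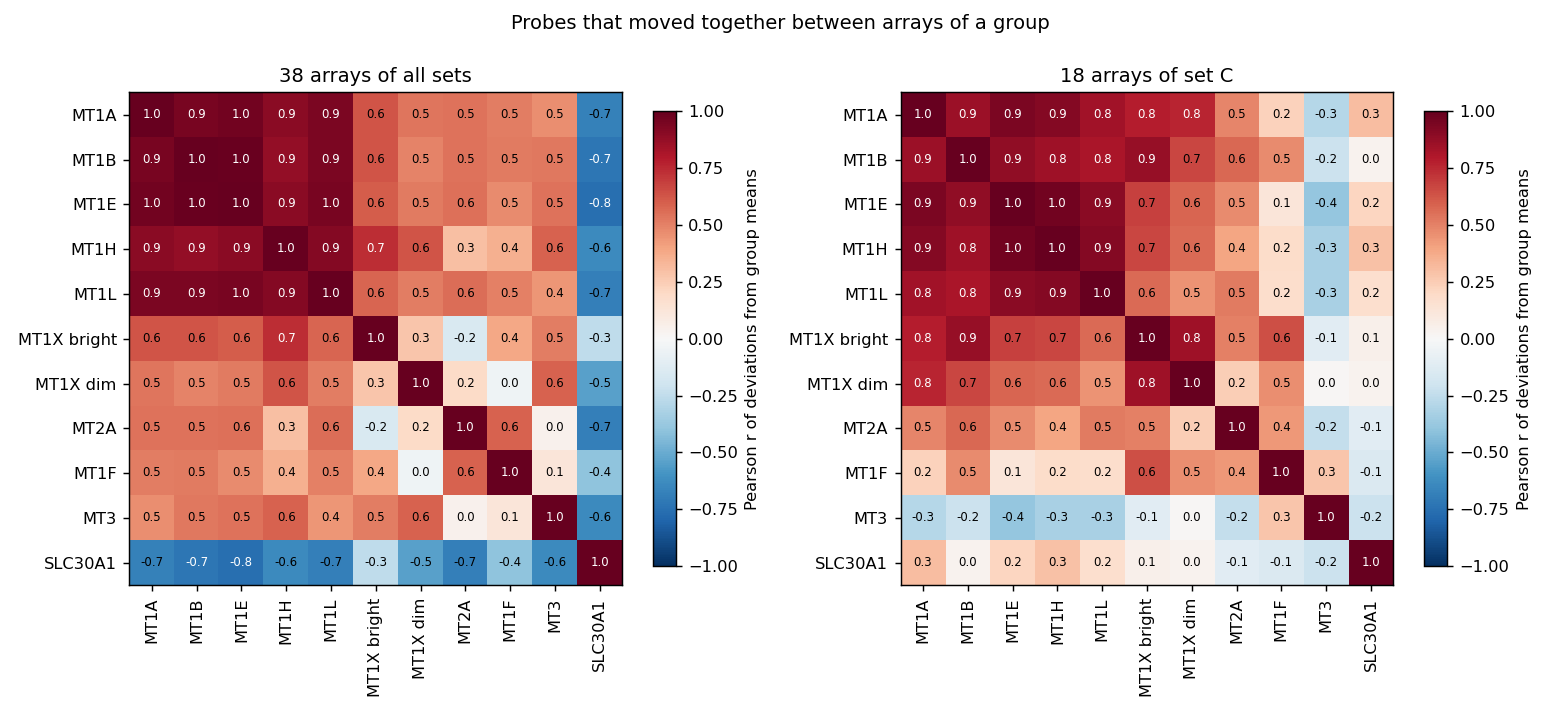
Pearson correlation, between probes, of each array's deviation from its group mean, over all 38 arrays (left) and the 18 arrays of set C (right), with red for positive and blue for negative values. The block of MT1A, MT1B, MT1E, MT1H and MT1L is dark red in both panels, while SLC30A1 is blue against it over all arrays and near 0 to 0.3 in set C.

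MT1X had 2 probes, both assigned to the same transcript accession, and they disagreed. On the brighter probe, A_33_P3350056, the levels at 24 h were 3.92, 3.84 and 3.79 in controls and 4.40, 4.35 and 4.32 at 6.0 µg/cm2, and those of 72 h controls were 3.84, 3.91 and 3.98. On the dimmer probe, A_33_P3236868, the levels were 0.26, 0.16 and 0.15 in 24 h controls and 1.35, 1.44 and 1.69 in 72 h controls. The dimmer probe thus separated the culture times without overlap and the brighter probe did not. The difference between 72 h and 24 h controls was 1.30 (SE 0.10, limma adjusted p = 0.000176), or 2.47-fold, on the dimmer probe, and 0.06 (SE 0.06, adjusted p = 0.467) on the brighter one.

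After 72 h of exposure the dimmer MT1X probe was lower, not higher. Its levels were 1.16, 1.35 and 1.32 at 3.0 µg/cm2 and 0.73, 0.68 and 0.94 at 6.0 µg/cm2. The 3.0 µg/cm2 arrays overlapped the controls (difference −0.21, SE 0.11, limma adjusted p = 0.179), and the 6.0 µg/cm2 arrays were all lower (−0.71, SE 0.12, adjusted p = 0.00347), a 1.64-fold fall. These controls were scanned on another day than the exposed arrays. Between 3.0 and 6.0 µg/cm2, scanned on the same day at 72 h, the dimmer probe differed by −0.50 (SE 0.10, adjusted p = 0.0213). The call between these doses was lost in 6 of 16 alternatives. At 24 h and 6.0 µg/cm2 the probe fell by 0.20 (SE 0.06, adjusted p = 0.0341) while the brighter probe rose. That call was lost when any array but exposed replicate 1 was left out (adjusted p from 0.0610 to 0.110). On the brighter probe the differences at 72 h were 0.10 (SE 0.06, adjusted p = 0.257) and 0.09 (SE 0.07, adjusted p = 0.304), and all exposed groups overlapped the controls. Its response was smaller at 72 h than at 24 h by 0.26 at 3.0 µg/cm2 (SE 0.08, adjusted p = 0.0359) and by 0.41 at 6.0 µg/cm2 (SE 0.08, adjusted p = 0.00296). The call at 3.0 µg/cm2 was lost with the replicate number as a block (adjusted p = 0.0654) and in 12 of 21 alternatives in all, and that at 6.0 µg/cm2 in none of them. Between arrays of a group, the 2 probes correlated at 0.278 over all 38 arrays and at 0.847 over the 18 arrays of set C. In set B the dimmer probe read −0.80 and −0.82 on exposed replicates 3 and 4, which were scanned on the second day, and −0.16 and −0.20 on replicates 1 and 2. The controls of set B read 0.02 and −0.18 on the second day and 0.05 and −0.42 on the first. The exposed arrays thus differed from controls by −0.73 within the second day and by 0.01 within the first.

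**Figure D5:**
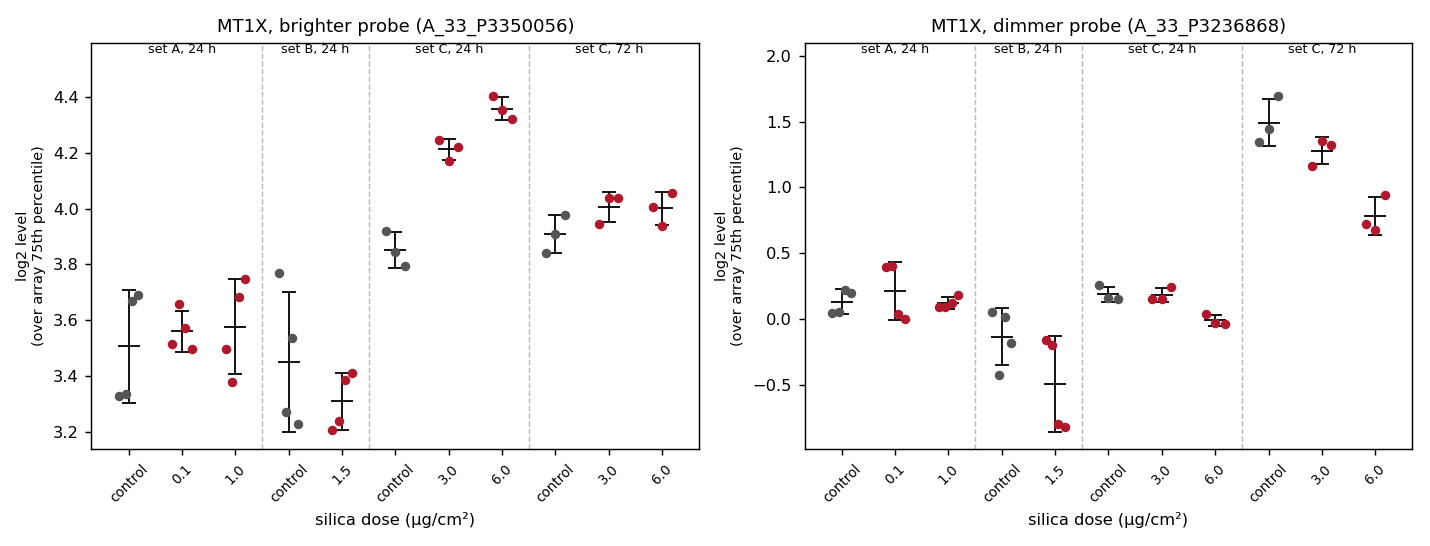
Log2 levels of the 2 MT1X probes on each array (points) with group means and SDs, by array set, time and dose in µg/cm2 (unexposed in grey, exposed in red; axes do not start at 0). The brighter probe (left) is at 4.32 to 4.40 at 6.0 µg/cm2 and 24 h, above its controls, and the dimmer probe (right) is high in 72 h controls, at 1.35 to 1.69, and lower at 6.0 µg/cm2 there.

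SLC30A1, the exporter, moved in opposite directions at the 2 times. At 24 h its levels were 0.63, 0.53 and 0.53 in controls, 0.48, 0.52 and 0.52 at 3.0 µg/cm2, and 0.32, 0.39 and 0.37 at 6.0 µg/cm2. All 6.0 µg/cm2 arrays were below all controls, with a difference of −0.21 (SE 0.06, limma adjusted p = 0.0299). At 72 h its levels were close to 0 in controls, between −0.03 and 0.01, and reached 0.19, 0.23 and 0.18 at 6.0 µg/cm2. All of these were above all controls, with a difference of 0.20 (SE 0.06, adjusted p = 0.0248). Each of both calls was lost with the replicate number as a block, with an adjusted p of 0.0728 at 24 h and of 0.0835 at 72 h. The call at 24 h was also lost when any 1 of its 6 arrays was left out (adjusted p from 0.0573 to 0.0736), and that at 72 h when any control or exposed replicate 2 was (0.0532 to 0.108). The difference between the responses was itself 0.41 (SE 0.07, adjusted p = 0.0011), and it was past the threshold in all 21 alternatives. Exposed 72 h arrays were scanned on another day than their controls, and none of these alternatives separates exposure from scan day there. On the same day at 72 h, SLC30A1 was higher at 6.0 than at 3.0 µg/cm2 by 0.16 (SE 0.05, limma adjusted p = 0.0773), not past the threshold. At 3.0 µg/cm2 the differences from controls were −0.06 (SE 0.05, adjusted p = 0.499) at 24 h and 0.04 (SE 0.04, adjusted p = 0.526) at 72 h. Of the 8 genes, SLC30A1 alone responded higher at 72 h than at 24 h at 6.0 µg/cm2, where 20.4% of all probes did, and MT1X alone lower, where 17.5% did. At 3.0 µg/cm2 MT1X alone passed the adjusted p, lower, without the replicate block, as did 9.87% of all probes.

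SLC30A1 was lower in unexposed cells after the longer culture. Between 24 h and 72 h controls, which shared slides and a scan day, it fell by 0.57 (SE 0.05, limma adjusted p = 0.000387), a 1.48-fold fall without overlap. MT1A rose by 0.30 (SE 0.07, adjusted p = 0.0124), and MT1B, MT1E and MT1H by 0.18, 0.17 and 0.21. In all, 4 of 8 genes rose and 1 fell, against 34.3% and 24.9% of all probes. None was modulated on its brightest probe, against 20.1% of all probes. The slide was shared by arrays with the same replicate number, and with that number as a block MT1B (adjusted p = 0.0860), MT1E (0.102) and MT1H (0.0909) were no longer past the threshold. The median difference of the 8 genes was 0.15 and that of all probes 0.06.

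At the 3 lower doses no member was modulated, nor did any pass the adjusted p. The percentage of all probes modulated was 0% at 0.1 µg/cm2, 0.00948% at 1.0 µg/cm2 and 2.48% at 1.5 µg/cm2. Differences of the 9 probes tested lay between −0.11 and 0.23 at 0.1 µg/cm2 (limma adjusted p from 0.616), between −0.20 and 0.11 at 1.0 µg/cm2 (from 0.25) and between −0.36 and 0.05 at 1.5 µg/cm2 (from 0.302). The number of these probes with an unadjusted p under 0.05 was 0, 1 and 0, the 1 being that of MT2A, and the methods' t-test also called 0 members at each dose. Several groups were not uniform. MT1E read 3.06, 3.08, 2.44 and 2.43 in the 4 replicates at 0.1 µg/cm2, and 2.66, 2.66, 2.97 and 2.99 in their controls. Replicates 1 and 2 were thus above their controls at 0.1 µg/cm2 and replicates 3 and 4 below. All arrays of set A were scanned on the same day, and replicates 1 and 2 were on different slides. The 75th percentile signal was 1457, 1380, 3136 and 3202 on the arrays at 0.1 µg/cm2. It was 2102, 1980, 1847 and 1898 on those of the controls, and its part in the split was not tested. SLC30A1 read 0.34, 0.33, 0.77 and 0.67 at 0.1 µg/cm2 and 0.48, 0.32, 0.21 and 0.17 in controls, so that replicates 3 and 4 were above all controls and replicates 1 and 2 within their range. With replicates 1 and 2, and 3 and 4, of each group as a random block, limma's consensus correlation within these pairs was 0.872 at 0.1, 0.807 at 1.0 and 0.63 at 1.5 µg/cm2. The probes modulated at 1.5 µg/cm2 then numbered 92 in place of 522, and they numbered 178 with normexp and 276 without exposed replicate 4. No member was modulated at these doses in any of the alternatives. In set B, where replicates 1 and 2 were scanned on the first day and replicates 3 and 4 on the second, MT1F differed from controls by −0.23 within the first day and by 0.25 within the second. Over all sets the deviations of SLC30A1 correlated at −0.751 to −0.636 with those of the 5 probes that moved together, and over set C alone at 0.034 to 0.309.

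MT1G and MT1M were near the floor of the arrays. MT1M was well above background on 1 of the 38 arrays and MT1G on 7, among them 2 arrays of unexposed cells. At 72 h and 3.0 µg/cm2 MT1G read −5.49, −4.82 and −6.73, and the first 2 of these arrays were well above background. Its 72 h controls read −7.41, −8.52 and −8.42, and none of them was. The mean of the exposed group, with its dim array at its own reading, was 1.80-fold above that of the controls. For this, each control array was set to the lowest signal that still counted as well above background there. A control array kept its own reading if that was higher. At 6.0 µg/cm2 and 72 h, scanned on the same day, it read −6.58, −6.92 and −8.01, well above background on 0 of 3 arrays and overlapping the controls.

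Other genes of metal handling were counted from lists of related genes. Of the other metallothionein genes and pseudogenes, 5 were on the array and 3 could be tested. The pseudogene MT1L rose at 72 h by 0.59 (SE 0.07, limma adjusted p = 0.00341) at 3.0 µg/cm2 and by 0.64 (SE 0.08, adjusted p = 0.00126) at 6.0 µg/cm2, and was modulated at both. Its levels were 3.80, 3.77 and 3.85 in 72 h controls, scanned on another day, and 4.30, 4.53 and 4.52 at 6.0 µg/cm2. At 24 h the mean level of MT1L was 3.60 in controls, 4.07 at 3.0 µg/cm2 and 4.18 at 6.0 µg/cm2. All exposed arrays were above all controls there too, and MT1L rose at both doses, but by less than 1.5-fold, so that it was not modulated. None of the 3 genes responded higher at 72 h than at 24 h past the adjusted p. The pseudogene MT1DP fell by 0.76 (SE 0.09, adjusted p = 0.00107) at 6.0 µg/cm2 and 72 h. MT3, known from the brain, rose in controls from 24 h to 72 h by 0.59 (SE 0.06, adjusted p = 0.000532).

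Of 24 further genes of zinc transport and its control, 3 rose and 3 fell of the 19 tested at 6.0 µg/cm2 and 24 h, and 4 rose and 5 fell of the 20 tested at 72 h. Of all probes, 14.2% rose and 20% fell at 24 h, and 23.8% rose and 22% fell at 72 h, so that the shares of this list were near or below those of all probes. Its median differences were 0.02 and −0.03. SLC39A10, a zinc importer, was 1.64-fold higher at 24 h (0.71, SE 0.06, limma adjusted p = 0.00045). SLC39A5, another importer, was 1.84-fold lower at 24 h (−0.88, SE 0.08, adjusted p = 0.000578) and 2.36-fold lower at 72 h (−1.24, SE 0.10, adjusted p = 0.0002). The zinc transporters SLC39A11 and SLC30A3 were lower at 72 h by 0.82 and 0.72. At 3.0 µg/cm2, 1 rose and 1 fell of 19 at 24 h, and 2 rose and 3 fell of 20 at 72 h, where SLC39A5 was lower by 1.01.

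Of 14 genes of copper and iron handling, all tested, 2 rose and 6 fell at 6.0 µg/cm2 and 24 h, where 14.2% of all probes rose and 20% fell. At 72 h 1 rose and 5 fell, where 23.8% of all probes rose and 22% fell. SLC31A2, linked to copper transport, was 1.63-fold higher at 24 h (0.70, SE 0.05, adjusted p = 0.000172). SLC40A1 (ferroportin, the iron exporter) was 2.02-fold lower at 24 h (−1.02, SE 0.06, limma adjusted p = 0.000146) and 4.21-fold lower at 72 h (−2.07, SE 0.07, adjusted p = 2.35e-05). CP (ceruloplasmin, a copper-bearing oxidase of iron) was 1.54-fold lower at 24 h and 7.02-fold lower at 72 h (−2.81, SE 0.24, adjusted p = 0.000253), after a 4.45-fold rise in controls between 24 h and 72 h. Of 8 glucocorticoid target genes, 5 rose and 1 fell at 6.0 µg/cm2 and 24 h, against 14.2% and 20% of all probes. SGK1 was higher by 0.94 and TSC22D3 by 0.77, and FKBP5 was lower by 0.62. At 72 h 2 rose and 4 fell, against 23.8% and 22%, and KLF9 was lower by 2.05. The median differences of these 8 genes were 0.43 at 24 h and −0.18 at 72 h.

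The genes whose pattern was most like that of MT1F, the member modulated in most comparisons, were LGALS2, NREP, DCDC1, KCNJ16 and INSL4. Their Pearson correlations with it were 0.962, 0.958, 0.958, 0.955 and 0.955 over the 38 arrays, each array taken relative to the mean of its own controls, among 17839 probes well above background on at least 30 arrays. These correlations include the differences between doses and carry no test. LGALS2, which encodes galectin-2, had mean differences of −1.64 and −2.97 at 3.0 and 6.0 µg/cm2 at 24 h, and of −1.94 and −3.90 at 72 h. INSL4, a peptide of the insulin family, had −0.92, −1.79, −0.94 and −2.34 in the same order.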

How the data were processed

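Total RNA of A549 cells was labeled with Cy3 and hybridised to 38 Agilent Human V2 4x44K arrays, 1 sample an array. The authors deposited the scanner output, made with Agilent Feature Extraction 10.10.1.1 (set A) or 11.0.1.1 (sets B and C). Its processed signal is an intensity corrected for background by the authors' software and not normalized between arrays. The deposited series matrix equals the median spot intensity in 1690810 of 1690810 values within 0.01. The paper's methods give an unpaired t-test with Benjamini-Hochberg adjustment, p under 0.05 and 1.5-fold, and no normalization was given in the sources used here.

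In R 4.3.3 with limma 3.58.1 and statmod 1.5.0, control spots and flagged spots (0.612%) were left out, log2 signals were set relative to the array's 75th percentile and spots of a probe were averaged. For each comparison, lmFit and eBayes took the probes that were well above background throughout 1 or more of its groups, and p-values were adjusted by the Benjamini-Hochberg method across all of them. Differences between times were tested as an interaction. Fits were tested on simulated data. Figures were drawn with Python 3.11.15, matplotlib 3.10.9 and pandas 2.3.3. Array number and signal over background limit the precision; there is no depth in counts.

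Times of exposed arrays came from the source names, and the description of every exposed 72 h array gives 24 h. Gene names came from RefSeq accessions (25771 of 34127 probes). The members and the gene lists were chosen with earlier results of these data known. Named genes were all members, and of each other list at most the 3 with the largest change among those modulated in a comparison; others were named after their values were seen. Same-numbered arrays lay on the same slide, per the labels, at 1.5 µg/cm2, in the 24 h groups of set C and in both control groups of set C. Their deviations correlated at 0.25 to 0.29 between 3.0 and 6.0 µg/cm2 at 24 h and at 0.07 to 0.47 at 1.5 µg/cm2. Against controls in set C they correlated at −0.01 to 0.16. Replicates 1 to 3 of set A shared slides too. Their deviations correlated with those of controls at −0.07 to 0.002 at 0.1 µg/cm2 and at −0.32 to −0.22 at 1.0 µg/cm2. Between 3.0 and 6.0 µg/cm2 at 72 h the correlations were 0.15 to 0.60, and replicate 3 alone shared a slide. Alternatives were the methods' t-test, normexp, quantile normalization, 2 other filters on dim probes, flagged spots kept, the series matrix, all groups of a set in 1 fit, a replicate, slide, replicate pair or scan day block, any probe of a gene, no fold threshold, replicates 1, 3 and 4, and each array left out.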

Additional observations from a re-analysis of the deposited data

Results flagged for a closer look

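The responses of SLC30A1 and of both MT1X probes differed between 24 h and 72 h by limma's interaction test. SLC30A1 responded to 6.0 µg/cm2 by 0.41 more at 72 h than at 24 h on the log2 scale (adjusted p = 0.0011), with all 3 exposed arrays below the 24 h controls and all 3 above the 72 h controls. The brighter probe of MT1X responded less at 72 h, with −0.26 at 3.0 µg/cm2 (adjusted p = 0.0359, and 0.0654 with the replicate block) and −0.41 at 6.0 µg/cm2 (adjusted p = 0.00296). The dimmer probe of MT1X gave −0.51 at 6.0 µg/cm2 (adjusted p = 0.0127), from a fall at both times. The exposed 72 h arrays were scanned on a day of their own, and the part of the scan day in these differences was not tested. MT1G, too dim to be tested, was well above background on 2 of 3 arrays at 3.0 µg/cm2 and 72 h and on 0 of 3 controls. It was so on 0 of 3 arrays at 6.0 µg/cm2 and 72 h. At 3.0 µg/cm2 its mean was 1.80-fold above controls raised to the detection limit, with 1 dim exposed array in that mean. In the 45 groups of 4 arrays checked over the tested probes, no array stood apart by Dixon's criterion, although about 1 in 20 would by chance. The criterion cannot flag an array in a group that splits into 2 pairs, as that of MT1E at 0.1 µg/cm2 did. Groups of 3 arrays, which are all those of set C, were not checked.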

How the results depend on the processing

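The 108 differences of member probes were recomputed under the alternatives, which gave 1899 values. Of these, 1776 stayed on their side of the threshold, 69 of them uncalled with a changed sign, 109 lost a call, 14 gained one and 0 turned a called direction. Of the 42 calls 26 held in every alternative, among them MT1F at 6.0 µg/cm2 at both times and against 3.0 µg/cm2. Without a fold threshold the modulated members, of 8 tested, numbered 7 at 3.0 µg/cm2 and 8 at 6.0 µg/cm2 at 24 h, and 5 and 7 at 72 h. They numbered 5 between the controls, and 1 and 2 for the differences in response at 3.0 and 6.0 µg/cm2. By adjusted p alone, 5.69% of all probes rose and 6.5% fell at 3.0 µg/cm2 and 24 h. The shares were 14.2% and 20% at 6.0 µg/cm2 and 24 h. At 72 h they were 12.9% and 13.9% at 3.0 µg/cm2, and 23.8% and 22% at 6.0 µg/cm2. Between the controls they were 34.3% and 24.9%. For the differences in response they were 10.7% and 9.87% at 3.0 µg/cm2, and 20.4% and 17.5% at 6.0 µg/cm2. Without a filter on dim probes 3 members rose at 3.0 µg/cm2 and 24 h and 2 at 72 h. With any probe of a gene counted, 2 members were modulated at 6.0 µg/cm2 and 72 h and 1 between the controls, and with quantile normalization 1 between the controls. With 1 array left out, 3 to 6 members rose at 3.0 µg/cm2 and 6 at 6.0 µg/cm2 at 24 h, and 1 to 4 and 5 to 6 at 72 h, while 0 to 1 were modulated at 3.0 µg/cm2 and 72 h (1 without exposed replicate 3, which is MT1G, tested there only because its dim exposed array was the one left out) and between the controls (1 without 24 h replicate 2 or 3). The replicate block changed no count of modulated members. It ended, beside the calls given with their results, that of the difference in response of the brighter MT1X probe at 3.0 µg/cm2 (adjusted p = 0.0654), a call lost in 12 of 21 alternatives in all. MT1F at 3.0 µg/cm2 and 24 h also lost its call with the methods' t-test (0.0667), without the filter (0.0974) and on the series matrix (0.0710), and MT1H at 6.0 µg/cm2 and 24 h with normexp (0.0764). Normexp moved the median difference of all probes at 6.0 µg/cm2 and 24 h from −0.03 to 0.10, and the series matrix that at 72 h from 0.04 to −0.10. The causes were not tested. The t-test was not run for differences in response. Dim signal kept MT1G and MT1M out of the reported tests.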
